A study of Mus musculus with 33 samples.

Results

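Ccl2, Ccl7, Ccl8, Ccl12, Ccl24 and Ccr2, which encode 5 macrophage chemokines and a chemokine receptor, were followed across every cell population, tissue and biotin sort of the series. The 6 members were taken by name from the 32285 genes of the count tables. The study used SAMENT, a niche labelling method in which a substrate given to living mice leaves biotin on cells near the labelling cells, and sorted the dissociated tissue into biotin positive and biotin negative cells before single-cell RNA sequencing. After an intracardiac injection and overnight labelling of about 10 hr, 4 positive and 4 negative samples came from each of bone (femurs and tibias), brain, liver and lung, which made 32 samples in 8 groups. A separate bone experiment, whose injection the labels call IIA without expanding the letters, gave 6 positive and 6 negative samples in a pooled matrix. The sources used here do not give the injected cells or the strain, genotype, age and sex of the mice, every group had been injected and given substrate, and no uninjected or unlabelled group was analysed here.

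CCR2 is the receptor by which classical monocytes leave the marrow and enter inflamed tissue. In mice CCL2, CCL7 and CCL12 are its main ligands, and CCL8, of the same monocyte chemoattractant group, also acts on CCR8. CCL24, an eotaxin made by macrophages, acts on CCR3 and draws eosinophils. Tissue macrophages are a known source of these chemokines, while CCR2 is lost as monocytes mature into resident macrophages.

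In the mm10 (GRCm38) build with the GENCODE annotation, the 4 CCR2 ligand genes lay on the plus strand of chromosome 11 within 81.2 kb. They were Ccl2 (ENSMUSG00000035385, chr11:82035571-82037453), Ccl7 (ENSMUSG00000035373, chr11:82045712-82047525), Ccl12 (ENSMUSG00000035352, chr11:82101845-82103400) and Ccl8 (ENSMUSG00000009185, chr11:82115185-82116799), each with 3 exons. Ccl24 (ENSMUSG00000004814, 4 exons) lay on the minus strand at chr5:135569937-135573049. Ccr2 (ENSMUSG00000049103, 4 exons) lay on the plus strand at chr9:124101950-124113557, next to the receptor gene Ccr3. The longest run of bases shared by the transcripts of any pair of members was 23, so few reads could fit more than 1 of them.

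The promoters of Ccl12 and Ccl8 are shown because these neighbouring ligands were both higher in the positive sort of brain phagocytes, and that of Ccr2 because it was lower there. Ccl7 and Ccl24 were also called higher there, but the promoter source used here held no entry for Ccl2, Ccl7 or Ccl24. Each stretch holds 300 bases, from 250 before the RefSeq start of the gene to 50 after it, from the RefSeq table with GRCm38.p6 coordinates, and is written 5′ to 3′ on the plus strand. They lie at chr11:82101595-82101894 for Ccl12, chr11:82114935-82115234 for Ccl8 and chr9:124101933-124102232 for Ccr2. The RefSeq and GENCODE starts are the same for Ccl12 and Ccl8, but the RefSeq start of Ccr2 lies 233 bases downstream of the GENCODE start given above, so most of its stretch lies inside the gene as GENCODE draws it. Capitals mark a TATA box (TATAAA) in the ligand promoters and a match to the C/EBP motif TTNCNNAA in the Ccr2 promoter. C/EBP proteins are transcription factors of the myeloid lineage.
Ccl12: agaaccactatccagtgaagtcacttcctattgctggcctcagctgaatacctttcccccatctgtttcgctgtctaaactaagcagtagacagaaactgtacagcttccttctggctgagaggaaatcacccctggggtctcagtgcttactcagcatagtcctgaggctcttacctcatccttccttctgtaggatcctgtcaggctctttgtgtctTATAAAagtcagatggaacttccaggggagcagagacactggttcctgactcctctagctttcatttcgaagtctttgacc
Ccl8: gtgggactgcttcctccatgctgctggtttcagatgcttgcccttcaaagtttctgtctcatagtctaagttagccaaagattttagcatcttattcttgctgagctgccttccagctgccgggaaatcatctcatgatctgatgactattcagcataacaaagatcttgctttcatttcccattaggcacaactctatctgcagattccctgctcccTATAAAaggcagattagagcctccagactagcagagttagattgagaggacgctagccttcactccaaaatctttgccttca
Ccr2: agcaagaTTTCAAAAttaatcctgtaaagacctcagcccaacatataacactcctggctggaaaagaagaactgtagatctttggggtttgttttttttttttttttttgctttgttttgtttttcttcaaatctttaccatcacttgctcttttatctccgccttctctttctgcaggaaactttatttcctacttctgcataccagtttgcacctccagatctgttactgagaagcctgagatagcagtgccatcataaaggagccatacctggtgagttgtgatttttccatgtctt
The TATA box began at base 220 of the Ccl12 stretch and base 219 of the Ccl8 stretch, and 13.6% of the 32544 promoters in the table held that motif. The Ccr2 stretch held no TATAAA, and its C/EBP match began at base 8, a motif found in 40.7% of all promoters. Searched on both strands, none of the 3 stretches matched AP-1 (TGANTCA, in 7.79% of promoters) or the NF-kB motif (in 8.49%). The longest run shared by the Ccl12 and Ccl8 stretches was 11 bases.

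The intracardiac samples kept 94 to 3505 cells each, with 482617 to 44834665 UMIs per sample, and the IIA samples kept 249 to 3480 cells and 2149784 to 27903856 UMIs. A UMI count of a member per 1000000 UMIs of the sample or population is written below as CPM. Of 56724 cell barcodes, 341 (0.601%) occurred in more than 1 sample, 54 of them within a tag panel. S100a8, a gene of neutrophils and monocytes, had a UMI in 94.3% of the brain macrophages and 99.2% of the lung Pf4 Spp1 cells described below, and the source of these UMIs was not tested. Cell clusters were built without any Ccl or Ccr gene and named from marker genes. Among them, a brain-rich macrophage cluster carried Apoe (39559 CPM in the positive sort), C1qa (6082 CPM), Mrc1 (3370 CPM) and Lyve1 (1116 CPM) and is called Apoe Lyve1 macrophages. A cluster found mainly in lung and liver carried Pf4 (7428 CPM in lung positive cells), Apoe (7730 CPM), Spp1 (2949 CPM) and C1qa (1138 CPM), with Ppbp at 743 CPM and the platelet gene Itga2b at 0.854 CPM. It could not be given a cell type by the marker rule, is called the Pf4 Spp1 cluster, and stood outside the phagocyte class. In IIA bone, a macrophage cluster with Mrc1, Hmox1 and the C1q genes among its leading genes is called Mrc1 C1q macrophages. Phagocytes below are the named macrophage, microglia and monocyte clusters.

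**Figure D1:**
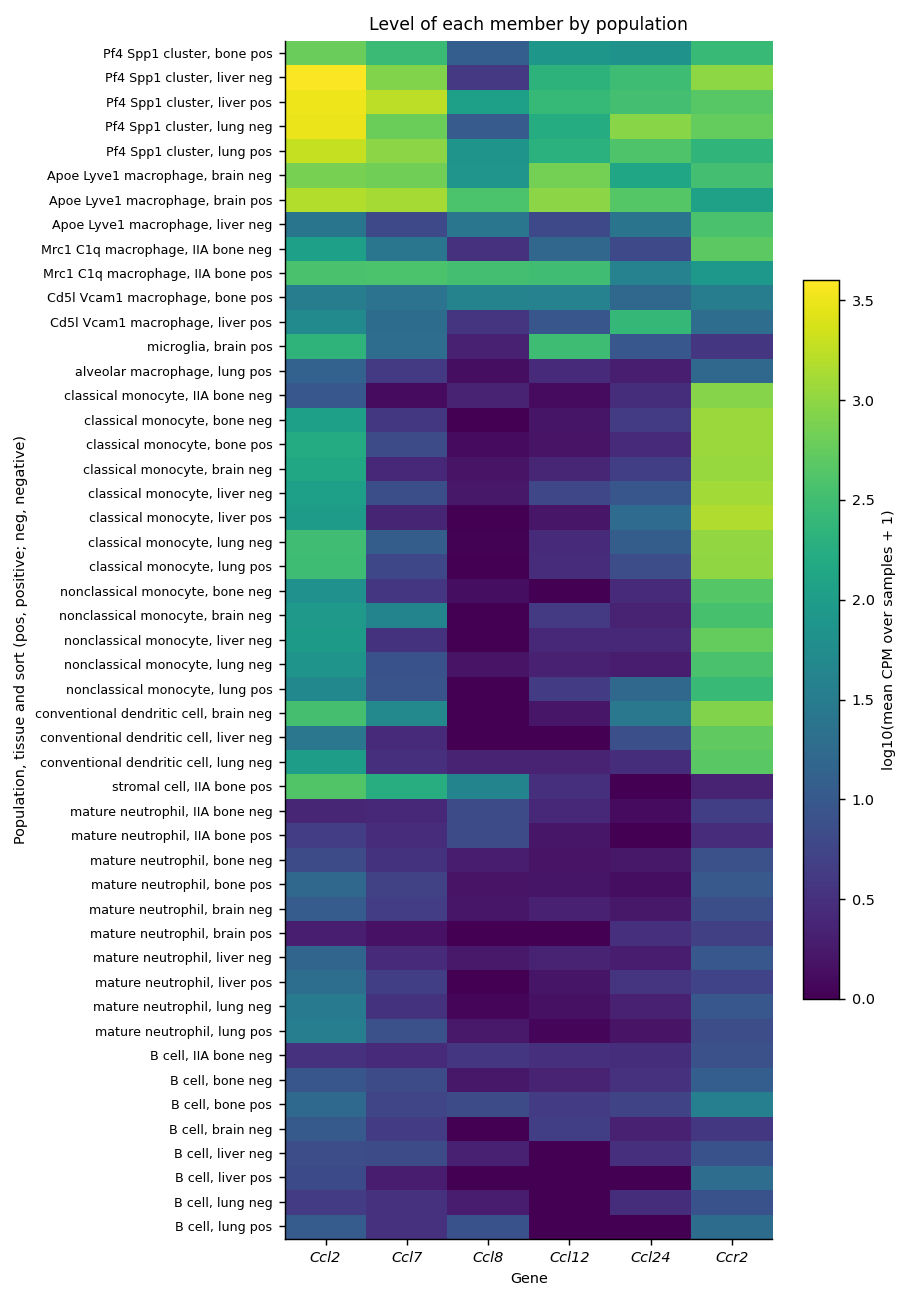
Heat map of each member's mean CPM over samples, as log10(CPM + 1), in selected cell populations, by tissue and biotin sort, with at least 2 samples of at least 20 cells. T cells, NK cells, endothelial cells and granulocyte precursors are among the populations left out. The highest mean of each of the 5 chemokines lies in the Pf4 Spp1 cluster (Ccl2, Ccl7 and Ccl24) or in the brain Apoe Lyve1 macrophages (Ccl8 and Ccl12), and Ccr2 is brightest in the classical monocytes.

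Ccl2, the ligand for which CCR2 is best known, was highest in the Pf4 Spp1 cluster of liver and lung and in the Apoe Lyve1 macrophages of brain. In the Pf4 Spp1 cells of liver it stood at 3860, 2819 and 4653 CPM in negative replicates 2, 3 and 4, and at 1096, 2386 and 6261 CPM in positive replicates 1, 2 and 3. The positive samples spanned the negative ones. In lung the same cluster gave 5565, 775, 2309 and 3846 CPM in the negative sort and 3808, 657, 1982 and 1175 CPM in the positive sort, which also overlapped. In brain the Apoe Lyve1 macrophages gave 817, 825 and 531 CPM in negative replicates 2 to 4 and 218, 3095, 1517 and 1346 CPM in the positive sort. Positive replicate 1 was the lowest of all 7 brain samples and the other 3 positive samples the highest. Means and SDs of the 5 highest groups ran in order from 3777 ± 920 CPM (n = 3) in liver negative Pf4 Spp1 cells to 1544 ± 1184 CPM (n = 4) in brain positive Apoe Lyve1 macrophages, and no neighbours among them differed by more than 1 SD. The brain negative macrophages lay below these at 724 ± 167 CPM (n = 3).

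Lower Ccl2 was seen in stromal cells of IIA positive bone (414 ± 204 CPM, n = 3), in Mrc1 C1q macrophages of the same sort (373 ± 321 CPM, n = 5) and in classical monocytes of lung (311 ± 70.4 CPM in the negative sort, n = 4). Microglia, the resident macrophages of brain, held 217 ± 51.9 CPM in the positive sort (n = 3). Alveolar macrophages, the resident macrophages of the airspaces, held 12.5 ± 8.70 CPM (n = 4). The share of brain positive Apoe Lyve1 macrophages with a Ccl2 UMI was 47.2% of all cells and 46.4% after thinning to 2000 UMIs per cell (median 3538 UMIs). Mature neutrophils and B cells, which should lack the gene, gave 3.44% among thinned lung negative neutrophils (median 3324.5 UMIs) and 2.08% among thinned brain negative B cells (median 2015 UMIs).

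Ccl7, a CCR2 ligand that also acts on CCR1 and CCR3, followed the same populations. Its level was 187, 2337, 1535 and 1229 CPM in the brain positive Apoe Lyve1 macrophages against 325, 781 and 901 CPM in negative replicates 2 to 4. Again positive replicate 1 lay below every negative sample and the other 3 above. In the Pf4 Spp1 cluster of liver, Ccl7 was 698, 846 and 977 CPM in negative replicates 2 to 4 and 624, 1188 and 3335 CPM in positive replicates 1 to 3. In lung it was 1048, 135, 373 and 954 CPM in the negative sort and 2267, 349, 690 and 470 CPM in the positive sort, and the sorts overlapped in both tissues.

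Ccl12, a ligand of mouse CCR2 without a direct human counterpart, was highest in brain. The positive Apoe Lyve1 macrophages held 685, 1459, 612 and 952 CPM and negative replicates 2 to 4 held 185, 810 and 1090.5 CPM, so the sorts overlapped. Microglia held 416, 255 and 239 CPM in the 3 positive samples with enough cells. Of the microglia, 44.6% had a Ccl12 UMI (29.2% thinned, median 4697 UMIs), against 0.327% of thinned brain negative neutrophils (median 4096 UMIs) and 0.175% of thinned B cells (median 2015 UMIs), while Ccl8 was found in 0.586% and Ccr2 in 1.47% of the same cells, with 2 Ccl8 and 10 Ccr2 UMIs in 397 cells.

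Ccl8, a ligand that in mice also acts on CCR8, was highest in Apoe Lyve1 and Mrc1 C1q macrophages. Brain positive Apoe Lyve1 macrophages held 107, 116, 247 and 1046 CPM of Ccl8, against 83.1, 21.7 and 119 CPM in negative replicates 2 to 4, and positive replicate 4 stood above the other 6, which overlapped. Mrc1 C1q macrophages of IIA bone held 67.4, 571, 320, 534 and 150 CPM in positive replicates 1, 2, 3, 5 and 6, and 0 to 7.21 CPM in the 5 negative samples with at least 20 such cells, with no overlap. Classical monocytes held few Ccl8 UMIs, with 1 in 1557 cells of the lung negative sort and 13 in 1912 cells of the liver negative sort. Microglia and alveolar macrophages of the positive sorts held 1.12 ± 1.46 CPM (n = 3) and 0.351 ± 0.304 CPM (n = 4). Outside brain, the positive sort had 1 sample with enough Apoe Lyve1 macrophages in each of lung (353 CPM), liver (309 CPM) and bone (236 CPM). The 2 liver negative samples with at least 20 such cells held 41.6 and 8.36 CPM.

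Ccl24, the CCR3 ligand, was high in different populations from tissue to tissue. The Pf4 Spp1 cells of lung held 1686, 712, 1024 and 223 CPM in the negative sort and 927, 301, 153 and 218 CPM in the positive sort, which overlapped. Brain Apoe Lyve1 macrophages held 530, 548, 247 and 461 CPM in the positive sort and 80.7, 166 and 156 CPM in negative replicates 2 to 4, without overlap. The share of these cells with a Ccl24 UMI was 45.0% positive and 11.2% negative, or 35.7% and 8.46% after thinning, against 0.157% of thinned brain negative B cells. Macrophages led by Cd5l and Vcam1 held 229, 309 and 199 CPM in liver positive replicates but 21.1 and 8.50 CPM in the 2 bone positive samples with enough cells.

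Ccr2, the receptor, was highest in classical monocytes in every tissue. Their mean level was 1495 ± 114 CPM in the liver positive sort (n = 2), 1245 ± 224 in liver negative (n = 4), 1154 ± 92.6 in bone positive (n = 3) and 1131 ± 98.6 in bone negative samples (n = 4). It was 1099 ± 195 CPM in brain negative (n = 4), 1039 ± 317 in lung negative (n = 4) and 1020 ± 353 CPM in lung positive samples (n = 3). Neighbours in this order differed by less than the larger of their SDs, except that the liver positive mean was more than 1 SD above the liver negative one. In the IIA experiment, made with another chemistry, the negative monocytes held 873.5 ± 120 CPM (n = 6). Resident macrophages were low, at 14.7 ± 10.5 CPM in alveolar macrophages (n = 4), 18.3 ± 14.5 CPM in liver Cd5l Vcam1 macrophages (n = 3) and 2.71 ± 2.67 CPM in microglia (n = 3). Mature neutrophils of the lung negative sort, which should lack Ccr2, held 8.57 ± 7.50 CPM (n = 4).

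The share of a sample's chemokine UMIs that came from each population is given for samples with at least 20 UMIs of the gene. In lung positive samples the Pf4 Spp1 cluster was on average 9.58% of cells and supplied 87.9 ± 4.97% (SD, n = 4) of Ccl2 UMIs, 95.3 ± 3.89% of Ccl7 and 95.0 ± 3.33% of Ccl24, but a more variable 67.1 ± 30.4% of Ccl8 (24.1 to 95.3%). In lung negative samples it was 1.75% of cells and supplied 43.8 ± 28.0% of Ccl2, next to 45.9 ± 25.2% from classical monocytes. In brain positive samples the Apoe Lyve1 macrophages were 35.2% of cells and supplied 98.4 ± 2.04% of Ccl8, 93.4 ± 5.97% of Ccl24 and 66.8 ± 21.5% of Ccl2. In IIA positive bone the stromal cells supplied 45.4 ± 32.2% of Ccl2 UMIs (n = 5) from 3.20% of cells, beside 53.6 ± 32.8% from Mrc1 C1q macrophages. In IIA negative bone the stromal cells were 0.414% of cells and supplied 71.1 ± 6.50% of Ccl2. In some groups no population stood out as the source. In IIA negative bone (n = 4) the largest Ccl8 sources lay within an SD of their cell shares. Neutrophil precursors gave 33.2 ± 10.9% (30.9% of cells), mature neutrophils 23.1 ± 16.6% (15.8% of cells) and an unnamed cluster 15.6 ± 5.05% (15.7% of cells). In bone negative samples Ccl24 was split between early granulocyte precursors (27.4 ± 24.5%) and classical monocytes (26.2 ± 6.71%, n = 3). Classical monocytes supplied most Ccr2 UMIs of the negative sorts, from 59.2% in bone to 75.6% in lung, and a lower share of the positive sorts, where the Pf4 Spp1 cluster (36.0% in lung) or early granulocyte precursors (41.0% in bone) came first in these tissues.

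The first comparison asked whether the members differed between biotin positive and negative cells of a tissue, over all kept cells summed per sample. Replicate numbers paired the samples in bone, brain and liver, and there Ccr2 was lower in the positive sample of 4 of 4 numbers. In brain all 5 chemokines were higher in the positive sample of 4 of 4 numbers. The share of all genes that did so was not counted, so these counts are not read as particular to the members. In sums over all kept cells, fewer cells of a type and less RNA per cell cannot be told apart. The fit with the number as a block is given beside a result of these 3 tissues when it changes the call. In lung, same-numbered samples shared a tag panel too, but not every pair deviated together, so its block counts are given under the processing.

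**Figure D2:**
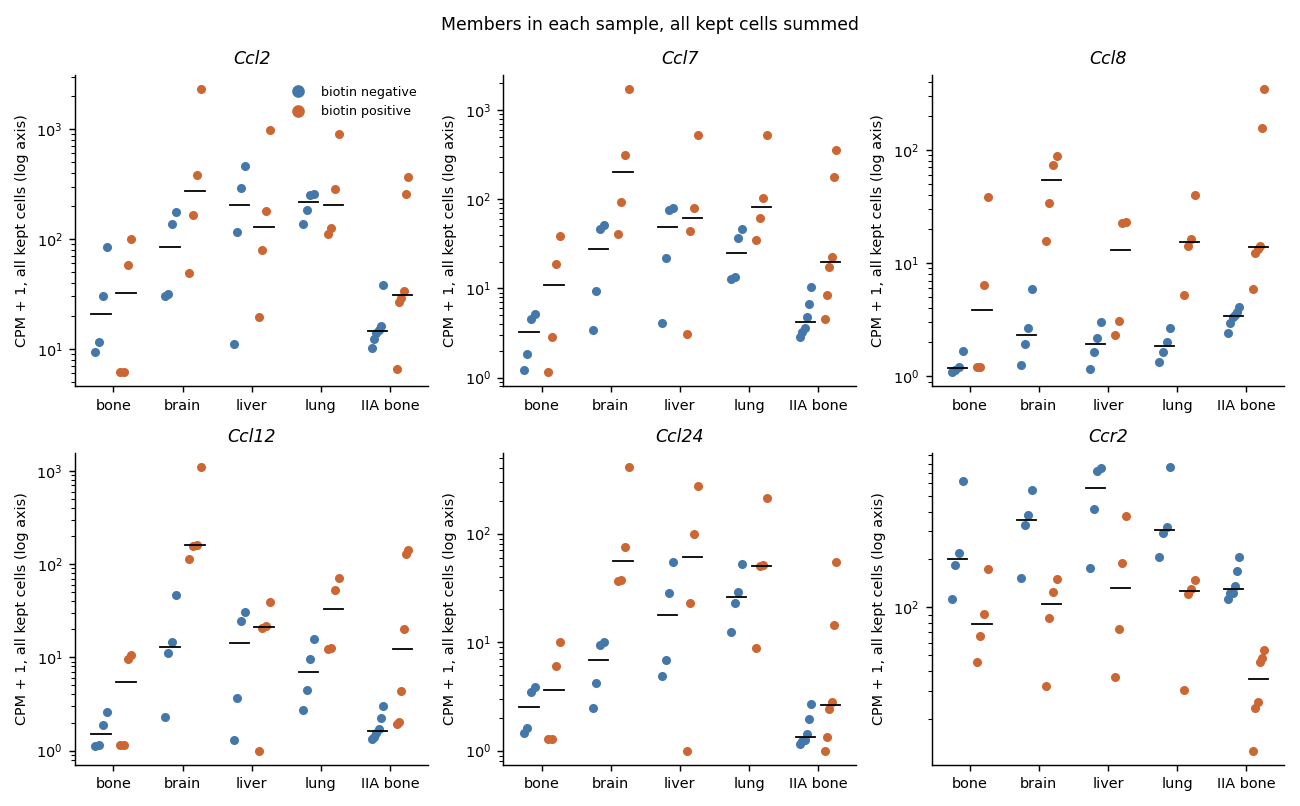
Level of each member over all kept cells of a sample, as CPM + 1 on a log axis, for the negative (blue) and positive (orange) samples of bone, brain, liver, lung and IIA bone, with a black bar at the group median. Ccl8 lies higher and Ccr2 lower in every positive sample than in any negative sample of brain, lung and IIA bone.

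In brain, Ccl8 stood at 0.253, 4.88, 1.70 and 0.942 CPM in the negative sort and at 14.5, 86.5, 33.1 and 72.1 CPM in the positive sort. The groups did not overlap. The difference was 4.49 on the log2 scale (SE 0.90, edgeR adjusted p = 0.0363), and Ccl8 was the only 1 of 6 members called, beside 3.06% of all genes tested. The call was lost without any of negative replicates 1, 3 and 4 or positive replicates 2, 3 and 4 (adjusted p 0.053 to 0.145), and the log2 difference was 5.55 without negative replicate 2. Ccl24 was 1.47, 8.43, 9.08 and 3.17 CPM in the negative and 73.5, 409, 36.1 and 35.4 CPM in the positive sort, and Ccl12 was 1.27, 13.7, 45.8 and 10.01 against 112, 1101, 158 and 157 CPM. Both were free of overlap, as were 15.5% of all genes in either direction, but missed the threshold (Ccl24 4.36, SE 0.99, adjusted p = 0.0521; Ccl12 4.14, SE 1.13, adjusted p = 0.0824). Without positive replicate 1 Ccl24 passed (adjusted p = 0.0418).

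Ccl2 of the brain samples was 30.3, 176, 135 and 29.5 CPM in the negative sort and 48.3, 2328, 380 and 163 CPM in the positive sort, and Ccl7 was 2.43, 45.3, 50.3 and 8.41 against 39.7, 1740, 311 and 92.5 CPM. Positive replicate 2 was the highest sample for each, and the groups overlapped. Ccr2 was 330.1, 377, 542 and 152 CPM in the negative and 124, 84.3, 151 and 31.1 CPM in the positive sort, without overlap (-2.10, SE 0.50, edgeR adjusted p = 0.0587). With the replicate number as a block, 5 of 6 members passed, beside 6.89% of genes. These were Ccl7 (3.53, adjusted p = 0.0108), Ccl8 (4.75, 0.00753), Ccl12 (4.32, 0.0422), Ccl24 (3.92, 0.0279) and Ccr2 (-2.22, 0.0103), while Ccl2 did not (1.78, 0.0571).

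In lung, 2 of 6 members passed, beside 18.3% of genes. Ccl8 was 0.346, 1.02, 1.67 and 0.659 CPM in the negative sort and 13.3, 15.2, 4.26 and 38.8 CPM in the positive sort, and it rose by 4.04 on the log2 scale (SE 0.71, edgeR adjusted p = 0.0069). The groups did not overlap, which held for 21.6% of lung genes, and the value was 3.29 without positive replicate 4. Ccr2 was 205, 318, 759.9 and 293 CPM in the negative sort and 121, 29.4, 129 and 147 CPM in the positive sort. It fell by 2.05 (SE 0.55, edgeR adjusted p = 0.0323), a call lost without negative replicate 3 (-1.60, adjusted p = 0.0859), negative 4 (0.0643), positive 1 (0.0731) or positive 3 (0.058). Ccl7 (2.46, SE 0.85, adjusted p = 0.0749) and Ccl12 (2.08, SE 0.78, adjusted p = 0.0936) missed the threshold, and Ccl2 differed by 0.52 (SE 0.61, adjusted p = 0.566). By replicate number, Ccl7 and Ccl12 were higher in the positive sample of 4 of 4, Ccl24 of 3 and Ccl2 of 2. With the number as a block more members and more genes passed, as counted under the processing.

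In bone, 0 of 5 members tested passed, beside 0.0% of 12533 genes by edgeR, of which 983 had an unadjusted p under 0.05. DESeq2 called 53 genes there and none of the members. Ccr2 was 618, 218, 185 and 112 CPM in the negative and 172, 90.0, 65.6 and 44.6 CPM in the positive sort, which overlapped (-1.68, SE 0.47, adjusted p = 0.615). With the replicate block Ccr2 was the only member called (-1.66, SE 0.13, adjusted p = 0.0255), beside 0.0957% of genes. Ccl8 of bone, below the count filter, reached 37.0 CPM in positive replicate 2 and 5.45 CPM in positive replicate 1, against at most 0.685 CPM in the other 6 samples.

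In liver, 0 of 6 members passed, beside 0.0% of 11854 genes by edgeR, of which 1571 were under 0.05 by unadjusted p. By DESeq2, 431 genes and 1 member were called. Ccl8 of the liver samples was 0.656, 1.18, 2.03 and 0.157 CPM in the negative and 22.2, 21.8, 1.35 and 2.07 CPM in the positive sort (3.45, SE 0.88, edgeR adjusted p = 0.165). Positive replicates 1 and 2 stood above all others and replicate 3 lay within the negative range. Ccr2 was 751, 415, 714 and 175 CPM against 371, 35.5, 189 and 72.5 CPM and overlapped (-1.78, SE 0.67, adjusted p = 0.316).

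In IIA bone, 5 of 5 members tested passed, beside 50.2% of genes. Ccl8 ranged from 1.44 to 3.09 CPM in the negative samples (median 2.43) and from 4.88 to 345 CPM in the positive samples (median 12.8), without overlap, as did 30.6% of genes. It rose by 5.02 on the log2 scale (SE 1.08, edgeR adjusted p = 0.00225). Ccl7 rose by 4.33 (SE 1.09, adjusted p = 0.00572) and Ccl12 by 5.69 (SE 1.27, adjusted p = 0.00277). Positive replicates 2 and 3 were the highest samples for all 4 CCR2 ligands, and without positive replicate 2 the values were 3.81 for Ccl8, 3.23 for Ccl7 and 5.02 for Ccl12. Ccl2 rose by 2.63 (SE 0.86, adjusted p = 0.0227), a call lost without that sample (1.86, adjusted p = 0.0565). Ccr2 ranged from 112 to 207 CPM in the negative and from 11.6 to 53.1 CPM in the positive samples, without overlap, and fell by 2.31 (SE 0.32, adjusted p = 0.000109).

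**Figure D3:**
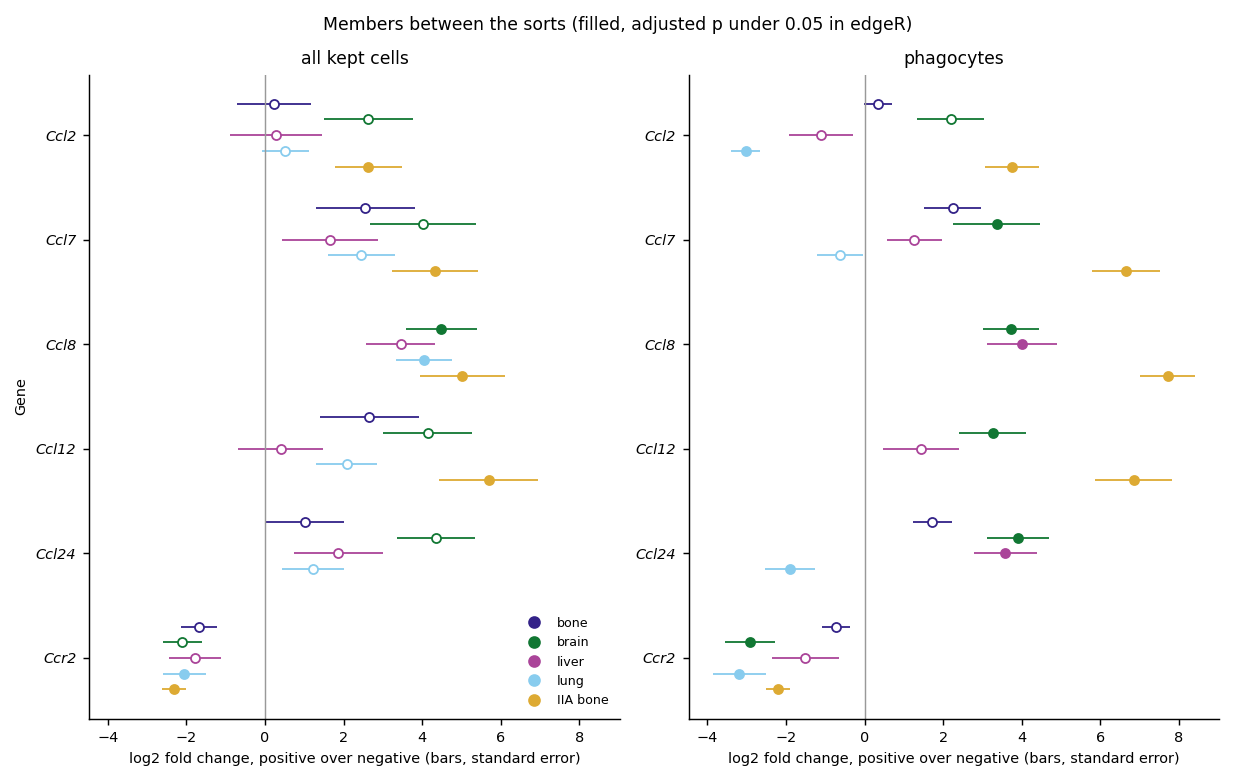
Log2 fold change of each member, biotin positive minus negative, with SE bars, in all kept cells and in phagocytes of each tissue; filled points have an edgeR adjusted p under 0.05. In all kept cells Ccr2 lies below 0 in every tissue, from -1.68 in bone to -2.31 in IIA bone.

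Whether a tissue differed from the other 3 in its biotin effect was tested directly in the 32 intracardiac samples. In bone, brain, liver and lung 0 of 6 members passed by edgeR, beside 0.0%, 0.301%, 0.0% and 2.54% of 13963 genes. Unadjusted p-values under 0.05 numbered 1057, 1677, 518 and 2141 genes, and DESeq2 called 3, 210, 16 and 624 genes with no member among them. The smallest adjusted p of a member was 0.364, so no member was shown to respond in 1 of these tissues more than in the others.

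The next comparison asked about the phagocyte class alone. Its makeup, counted over the cells of all samples of a sort, differed between the sorts. Classical monocytes were 81.3%, 66.3%, 83.1% and 78.2% of negative phagocytes in bone, brain, liver and lung, whereas the leading positive phagocytes were Cd5l Vcam1 macrophages in bone (49.0%, with 24.7% classical monocytes) and liver (70.4%), Apoe Lyve1 macrophages (63.9%) and microglia (31.0%) in brain, and alveolar macrophages in lung (91.3%). In bone, 415 of the 421 positive Cd5l Vcam1 macrophages came from positive replicates 1 and 2. In IIA bone, classical monocytes were 77.8% of negative and Mrc1 C1q macrophages 92.9% of positive phagocytes.

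In brain phagocytes 5 of 6 members passed, beside 37.2% of genes. Ccl24 rose by 3.92 on the log2 scale (SE 0.79, edgeR adjusted p = 0.0046), Ccl8 by 3.72 (SE 0.71, adjusted p = 0.00372) and Ccl12 by 3.27 (SE 0.85, adjusted p = 0.0145). Ccr2 fell by 2.92 (SE 0.64, adjusted p = 0.00649). Ccl7 rose by 3.37 (SE 1.11, adjusted p = 0.0378), a call lost without any negative sample or without positive replicates 2 or 3 (adjusted p 0.0523 to 0.132, and 1.77 without positive replicate 2). Without positive replicate 2 Ccl24 was 3.26 and Ccl12 2.51, without negative replicate 2 Ccl8 was 4.51, and without positive replicate 1 Ccr2 was -3.54. Ccl2 missed the threshold (2.19, SE 0.85, adjusted p = 0.0693), and passed with the replicate block (1.42, adjusted p = 0.0249, beside 41.4% of genes) or without positive replicate 1 (2.55, adjusted p = 0.0282). Without the monocyte clusters 0 of 6 members and 0 of 5857 genes passed by edgeR (656 genes at an unadjusted p under 0.05), with Ccl8 at 0.90, Ccl24 at 1.37, Ccl7 at 0.71 and Ccl12 at 0.28.

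In liver phagocytes, with 3 positive and 4 negative samples of at least 10 cells, 2 of 6 members passed, beside 3.3% of genes. Ccl8 rose by 4.01 (SE 0.90, edgeR adjusted p = 0.0486) and Ccl24 by 3.58 (SE 0.80, adjusted p = 0.049). Each call was lost without any 1 of the 7 samples other than positive replicate 1 (adjusted p 0.083 to 0.147 for Ccl8 and 0.0869 to 0.208 for Ccl24, with Ccl24 at 2.39 without positive replicate 2), and Ccl8 was 2.25 without positive replicate 1. With the replicate block Ccl24 kept its call (3.32, adjusted p = 0.00163, beside 6.19% of genes) and Ccl8 did not (3.70, adjusted p = 0.0703). In bone phagocytes 0 of 4 members tested passed by edgeR, beside 0.19% of genes with 1320 at an unadjusted p under 0.05. DESeq2 called 137 genes there and no member.

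In lung phagocytes the direction of Ccl2 and Ccl24 was the opposite. Ccl2 fell by 3.03 (SE 0.36, edgeR adjusted p = 0.000141), Ccl24 fell by 1.90 (SE 0.63, adjusted p = 0.0311) and Ccr2 fell by 3.19 (SE 0.67, adjusted p = 0.00323), 3 of 4 members tested, beside 47.3% of genes. The Ccl24 call was lost without negative replicate 2 (-0.92, adjusted p = 0.131) or positive replicates 1, 2 or 3 (0.0512 to 0.0659), and without positive replicate 1 Ccl7 was lower (-1.56, adjusted p = 0.0336). This class leaves out the Pf4 Spp1 cluster. On average that cluster supplied most UMIs of each chemokine in the lung positive sort, but not most Ccl2 UMIs of the negative sort. With that cluster added, Ccl2 was -0.51 and Ccl24 0.10, neither past the threshold.

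In IIA bone phagocytes 5 of 5 members tested passed, beside 32.3% of genes. Ccl8 rose by 7.71 (SE 0.70, edgeR adjusted p = 1.71e-06), Ccl12 by 6.85 (SE 0.99, adjusted p = 9.47e-05), Ccl7 by 6.65 (SE 0.86, adjusted p = 3.91e-05) and Ccl2 by 3.75 (SE 0.69, adjusted p = 0.000688), and Ccr2 fell by 2.21 (SE 0.30, adjusted p = 5.19e-05). Fitted values of this size depend on the prior count, since the negative samples were near 0. Without negative replicate 3 Ccl7 was 8.10 and Ccl12 7.58, and without positive replicate 5 Ccl12 was 6.12.

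To hold the population fixed, the members were also compared within single clusters, chosen after the values had been seen. In the brain Apoe Lyve1 macrophages, with 4 positive and 4 negative samples of at least 10 cells, 0 of 6 members passed by edgeR, beside 0.0252% of genes with 673 at an unadjusted p under 0.05, and DESeq2 called 107 genes with 1 member. Ccl24 was 1.74 higher (SE 0.38, adjusted p = 0.0654), Ccl8 2.36 (SE 0.82, adjusted p = 0.169) and Ccr2 -2.37 (SE 0.78, adjusted p = 0.148). Without positive replicate 3 Ccl24 (1.93, adjusted p = 0.00906) and Ccr2 (-3.36, adjusted p = 0.0134) passed. Ccl24 was free of overlap between the sorts in this cluster, as were 9.49% of genes. With the replicate block 5 of 6 members passed, beside 8.13% of genes: Ccl2 (1.27, adjusted p = 0.00641), Ccl7 (1.30, 0.0413), Ccl8 (2.09, 0.0143), Ccl24 (1.76, 0.0119) and Ccr2 (-2.93, 0.00873), while Ccl12 did not (0.66, 0.461). The cells of this cluster were not alike in the sorts, with Lyve1 at 122 CPM in negative and 1116 CPM in positive cells and Cd163 at 283 and 1560 CPM. The part of that difference in the results was not tested.

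**Figure D4:**
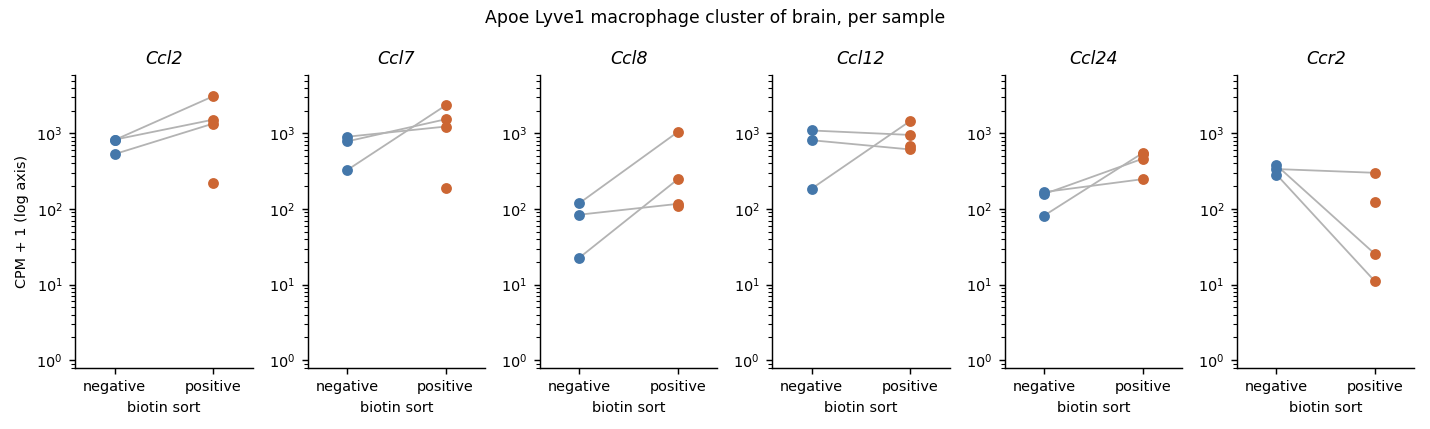
CPM + 1 of each member on a log axis in the Apoe Lyve1 macrophages of brain, 3 negative samples (replicates 2 to 4) and 4 positive samples, with grey lines joining samples of the same replicate number. Ccl24 lies higher in all 4 positive samples than in the negative ones, and Ccl12 overlaps.

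In the Mrc1 C1q macrophages of IIA bone, over 6 positive and 6 negative samples, 3 of 4 members tested passed, beside 24.2% of genes. Ccl8 rose by 6.93 (SE 0.73, edgeR adjusted p = 2.31e-05) from 4 UMIs in 312 negative cells to 2556 UMIs in 831 positive cells of the samples with at least 20 cells, and was 8.34 without negative replicate 2. Ccl7 rose by 4.16 (SE 0.85, adjusted p = 0.00233) and was 5.92 without negative replicate 3. Ccr2 fell by 2.59 (SE 0.24, adjusted p = 1.67e-05), from 437 to 592 CPM in the negative samples to 47.6 to 123 CPM in the positive ones. Neither Ccl8 nor Ccr2 overlapped between the sorts, as held for 9.89% of genes. Ccl2 was 1.70 higher (SE 0.61, adjusted p = 0.0508), and passed without negative replicate 2 or positive replicates 1, 4 or 6 (adjusted p 0.0207 to 0.039). Here too the cells differed between sorts, with Ly6c2, a monocyte gene, at 1502 CPM in negative and 298 CPM in positive cells and C1qa at 79.8 and 856 CPM, and the part of that difference in the results was not tested.

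**Figure D5:**
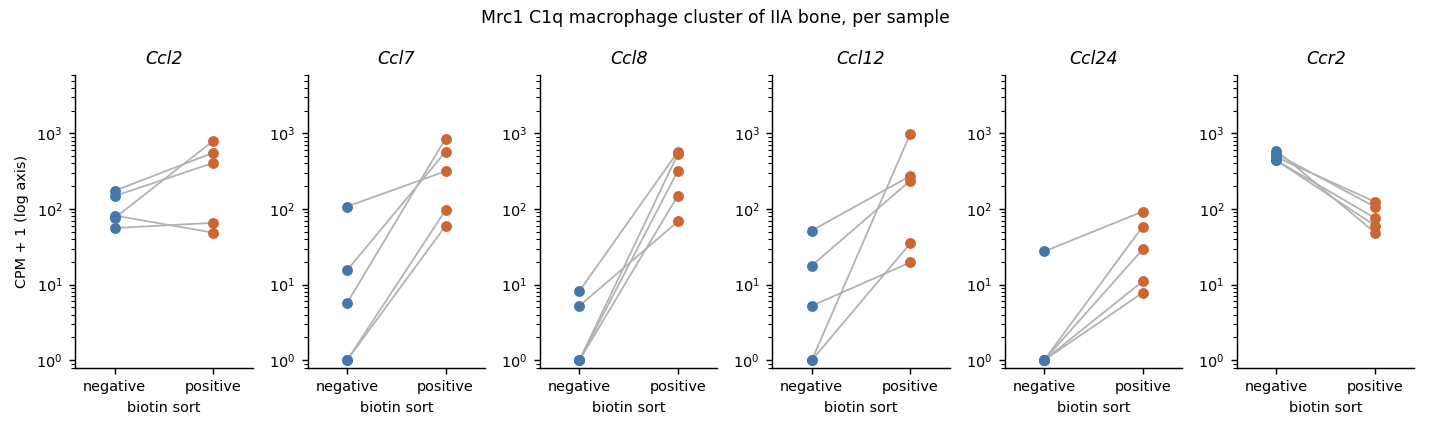
CPM + 1 of each member on a log axis in the Mrc1 C1q macrophages of IIA bone, for 5 negative and 5 positive samples with at least 20 cells, with grey lines joining samples of the same replicate number. Ccl8 is at most 7.21 CPM in the negative and at least 67.4 CPM in the positive samples, and Ccr2 is higher in every negative sample.

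In the Pf4 Spp1 cluster no member passed in lung (0 of 6, beside 0.0386% of genes, 649 at an unadjusted p under 0.05) or in liver (0 of 5, beside 0.09%, 478 at an unadjusted p under 0.05) by edgeR, while DESeq2 called 63 genes with 1 member and 32 genes with none. Ccl8 in lung was 3.01, 15.7, 10.7 and 9.87 CPM in the negative and 45.9, 91.2, 22.4 and 128 CPM in the positive sort, without overlap (2.84, SE 0.57, adjusted p = 0.0894), as were 6.94% of genes. Ccr2 in lung was 527, 354, 698 and 653 CPM in the negative and 311, 66.3, 243 and 283 CPM in the positive sort, also without overlap (-1.39, SE 0.42, adjusted p = 0.213). In liver Ccr2 was 917, 1048 and 977 CPM in negative replicates 2 to 4 and 505, 277 and 608 CPM in positive replicates 1 to 3 without overlap (-0.90, SE 0.31, adjusted p = 0.389), beside 8.23% of genes. With the replicate block Ccl7 of liver passed (1.85, adjusted p = 0.00495, beside 2.14% of genes). The block also called members in lung, as counted under the processing.

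In monocytes, the cells that carry most Ccr2, no member passed between the sorts by edgeR in bone, brain, liver or lung. The tests covered 3, 3, 3 and 4 members, beside 0.0%, 0.012%, 0.0% and 0.0% of genes, with 435, 594, 166 and 461 genes at an unadjusted p under 0.05 and 0, 3, 0 and 12 genes called by DESeq2. Negative monocytes were also compared between tissues, each against the other 3, and 0 of 5 members passed in any, beside 4.26% of genes for bone, 3.66% for lung and 0.0% for either brain or liver. Ccl2 in lung monocytes was nearest, at 1.42 higher (SE 0.40, edgeR adjusted p = 0.0583), and passed without brain negative replicate 2 (adjusted p = 0.0459) or liver negative replicate 1 (1.29, adjusted p = 0.0378). Without the latter, bone monocytes were lower in Ccl2 (-0.90, adjusted p = 0.0482).

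Ccl24 in the Cd5l Vcam1 macrophages was compared between liver (3 samples) and bone (2 samples) of the positive sort, a comparison added after the levels above had been seen. Ccl24 was 4.54 higher on the log2 scale in liver (SE 0.46, edgeR adjusted p = 0.000198), beside 6.53% of genes, and 3.69 without bone positive replicate 2. That value rests on 1 bone sample, which is assumed to vary like the liver samples. Ccl2, the other member tested, differed by 0.78 (SE 0.54, adjusted p = 0.538). These cells carried Clec4f, a Kupffer cell gene, at 3079 CPM in liver and 101 CPM in bone.

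Within single cells of the positive sorts, thinned to 2000 UMIs, Ccl7 was found more often beside Ccl2. In brain Apoe Lyve1 macrophages 57.9 ± 9.47% of cells with a Ccl2 UMI had a Ccl7 UMI, against 12.2 ± 2.33% of cells without (SD, higher in 4 of 4 samples). In the lung Pf4 Spp1 cluster these shares were 64.0 ± 11.5% and 8.90 ± 2.64% (4 of 4 samples), and in the IIA Mrc1 C1q macrophages 49.9 ± 28.3% and 11.2 ± 5.65% (4 of 5 samples). In lung, Ccl12 (26.4% and 8.06%), Ccl24 (34.9% and 17.6%) and Ccr2 (37.3% and 17.9%) were also higher beside Ccl2, each in 4 of 4 samples. In brain this held for 3, 3 and 2 of 4 samples, and in IIA bone for 4, 3 and 3 of 5. Ccl8 differed less between cells with and without Ccl2, at 15.1% and 15.3% in brain (higher in 2 of 4 samples), 5.44% and 2.95% in lung (3 of 4) and 18.4% and 14.4% in IIA bone (3 of 5). These shares are descriptions, and cells of a sample are not replicates.

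Over 75 combinations of cell class, tissue and sort, the genes most like each member were ranked by Pearson's r of log2(mean CPM + 10) among 7771 genes. The combinations share libraries, so the values are descriptions. For Ccl2 they included Fcgr1 (0.91) and Ms4a6d (0.89), for Ccl7 Ccl12 (0.92), Ccl24 (0.91) and C3ar1 (0.89), and for Ccl12 Ccl7 (0.92), C3ar1 (0.92) and C1qc (0.86). For Ccl8 they were Cbr2 (0.91), Ms4a7 (0.89) and Folr2 (0.89), for Ccl24 Ccl7 (0.91), C3ar1 (0.90) and Ccl12 (0.84), and for Ccr2 S100a4 (0.92), Fam89b (0.85) and Ms4a6c (0.83). Ccl2 and Ccl7 had an r of 0.85 and Ccl2 and Ccl8 of 0.57, and Ccr2 had between 0.19 with Ccl8 and 0.58 with Ccl2.

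The other genes of the pathway were taken from lists of receptors, further chemokines, upstream inducers, monocyte genes and genes of alternative activation. In brain phagocytes, where 37.2% of 9462 genes passed (1734 higher and 1783 lower), 11 of 12 tested genes of alternative activation rose and none fell, with a list median of 3.96 against 0.02 over all genes. Among these, Lyve1, a receptor for hyaluronan, rose by 5.13, Igf1, a growth factor, by 4.43, and the scavenger receptor gene Cd163 by 4.24 on the log2 scale. Of 11 monocyte genes there 1 rose and 8 fell, among them Vcan (-3.82) and Ly6c2 (-3.13). Of 16 inducers 4 rose, with Tnf at 2.85, and 1 fell (Myd88, -0.94). Of 6 further chemokines, Ccl4 (2.38) and Ccl3 (2.16) rose and Ccl6 fell (-1.11).

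In lung phagocytes, where 47.3% of genes passed, Ccr1, a receptor that shares ligands with Ccr2, fell by 1.07, and of 9 further chemokines 4 rose, among them Ccl17 (4.16) and Ccl22 (4.39), and 2 fell. In IIA bone phagocytes, where 32.3% of genes passed, 4 of 5 further chemokines rose, from Ccl9 (1.04) to Ccl4 (2.37), and of 16 inducers Tnf (3.15), Nfkbia (1.60) and Tlr4 (0.94) rose and Myd88 fell (-0.87). In liver phagocytes 4 of 12 genes of alternative activation rose, with Gas6 at 4.21, beside 3.3% of genes called, and in bone phagocytes 1 of 7 did (Gas6, 6.03), beside 0.19%. The other lists had no gene past the threshold in liver or bone phagocytes.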

How the data were processed

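UMI counts per gene and cell were deposited by the authors, who made them with Cell Ranger (6.1.2 and 7.1.0, per the submitters' processing notes and file headers) on mm10. The intracardiac libraries were 3' CellPlex and the IIA library 5' TotalSeqC, whose cells were assigned to samples by a hashtag with at least 10 counts and 3 times the next. Cells needed 500 UMIs, 200 genes and at most 15% mitochondrial UMIs, which kept 55366 intracardiac and 22362 IIA cells. They were clustered with scanpy 1.11.5 (2000 variable genes, 30 components, Leiden resolution 1) without Ccl or Ccr genes. Scrublet scores served as an alternative only. UMIs were summed per sample and population (at least 10 cells for tests and 20 for levels) and tested with edgeR 4.0.16 (quasi-likelihood, TMM, filterByExpr, Benjamini-Hochberg over all genes, threshold 0.05), with DESeq2 1.42.0 as an alternative. On simulated lung counts (dispersion 0.1) edgeR recovered 97% of 200 genes changed 4-fold, with 13 false calls. Every gene was drawn at that dispersion, so the 97% does not hold for members with a larger spread between samples. Genes named beside the members were those of the lists past the threshold, at most 4 per list and direction in order of size, and the 3 genes most like each member. Results for some genes are not reported here. The members and lists were chosen with earlier results of these data known. Same-numbered positive and negative samples deviated together in bone, brain and liver (correlations from 0.216 to 0.730), and not in every pair of lung (-0.08 in replicate 3) or IIA bone (0.08 in replicate 3). Labels do not say that samples came from separate mice, so p-values measure the spread between these samples.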

Additional observations from a re-analysis of the deposited data

Results flagged for a closer look

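In 14 of 90 groups of 4 to 6 samples, 1 sample lay far from the others. Chance gives about 5% of groups when values are normally distributed, which was not tested for these CPM, so no excess is claimed. The members of a sample also share its cells. Brain positive replicate 2 was high for Ccl2 (2328 CPM, nearest 380), Ccl7 (1739.8, nearest 311), Ccl12 (1101, nearest 158) and Ccl24 (409, nearest 73.5) over all kept cells. Liver positive replicate 3 was high for Ccl2 (989.7 CPM, nearest 178) and Ccl7 (522, nearest 78.5), and lung positive replicate 1 for Ccl7 (523 CPM, nearest 102). Bone positive replicate 2 was high for Ccl8 (37.0 CPM, nearest 5.45). In IIA bone, negative replicate 2 was high for Ccl2 (37.0 CPM, nearest 15.2) and positive replicate 2 for Ccl24 (53.9, nearest 13.3). Within the Mrc1 C1q macrophages of IIA bone, negative replicate 3 was high for Ccl7 (107 CPM, nearest 14.4), negative replicate 2 for Ccl24 (26.4, all others at 0) and positive replicate 5 for Ccl12 (981, nearest 273). Within the brain Apoe Lyve1 macrophages, positive replicate 4 was high for Ccl8 (1046 CPM, nearest 247).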

How the results depend on the processing

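Over 433 member log2 differences under settings other than leaving out a sample, 353 kept direction and side of the threshold, 41 passed it, 28 no longer did and 11 changed sign. With the replicate number as a block, the members called became 1 in bone, 5 in brain and 4 in lung over all kept cells, 6 in brain phagocytes, 5 in brain Apoe Lyve1 macrophages, 1 in liver phagocytes, 1 and 3 in the Pf4 Spp1 cluster of liver and lung, 1 in lung monocytes and 1 in negative lung monocytes against other tissues. Of all genes the block called 2563 of 12331 in lung over all kept cells, 283 of 5187 in its Pf4 Spp1 cluster, 166 of 8187 in its monocytes and 1357 of 9895 in the negative ones against other tissues. In bone the block turned Ccl2 to -0.28. Same-numbered lung samples shared a tag panel, as did those of bone, brain and liver, but not every lung pair deviated together. In IIA bone all samples shared 1 panel. There the edgeR block gave Ccl2 over all kept cells 1.62 (adjusted p = 0.0647) and within Mrc1 C1q macrophages 1.41 (0.0332). DESeq2 called 4 members in brain (beside 1225 of 11064 genes), 1 in liver (431 of 11854) and 4 in lung (3094 of 12331) over all kept cells, 1 in brain Apoe Lyve1 macrophages (107 of 3961) and 1 in the lung Pf4 Spp1 cluster (63 of 5187). Without TMM, which moved the median of all genes by up to 0.32, brain gave 3 members (705 of 11064 genes) and its Apoe Lyve1 macrophages 1 (27 of 3961). Without the count filter, brain gave 3 (517 of 21136 genes), bone phagocytes 2 (411 of 17595) and negative lung monocytes 1 (480 of 18825). Brain phagocytes gave 6 under each of DESeq2, no TMM and no count filter, and under these 3 settings and the block the counts not given here moved by at most 1 member. Leaving out the top 5% of Scrublet scores gave 2 in brain (373 of 10851 genes) and 1 in liver phagocytes (412 of 9814). With Ccl and Ccr genes kept for clustering, bone phagocytes gave 1 (208 of 9233 genes), liver phagocytes 0 (0 of 10306) and negative lung monocytes 1 (328 of 9680).

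The phagocyte calls depended on the clusters counted. Without monocyte clusters 0 members passed in brain, liver and lung (beside 0, 0 and 46 genes) and 3 in IIA bone (1174 of 4853). With the Pf4 Spp1 cluster added liver gave 0, and in that cluster alone liver and lung gave 0, as did the Apoe Lyve1 macrophages alone in brain, while the Mrc1 C1q macrophages alone gave 3 in IIA bone. Ccl2 in liver phagocytes became 0.80 with Ccl and Ccr genes kept, 0.48 without monocytes, 0.85 with the Pf4 Spp1 cluster and 0.18 in it alone. Ccl7 in lung phagocytes became 1.26, 0.47, 1.33 and 0.45 in the same order. Ccl24 in lung phagocytes became 0.027 with Ccl and Ccr genes kept and 0.10 with the Pf4 Spp1 cluster. Beyond the clusters counted, the cause of these changes was not tested.

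Leaving out each sample in turn gave 0 to 2 members in brain and 1 to 2 in lung over all kept cells and 4 to 6 in IIA bone. In phagocytes it gave 0 to 1 in bone, 4 to 6 in brain, 0 to 2 in liver, 2 to 3 in lung and 5 to 6 in IIA bone, 0 to 2 in brain Apoe Lyve1 macrophages and 3 to 5 in Mrc1 C1q macrophages. Negative monocytes gave 0 to 1 in lung and 0 to 1 in bone, and Cd5l Vcam1 macrophages 1 to 3, where leaving out a bone sample leaves 1, assumed to vary like the liver samples. Over all kept cells, log2 differences that changed sign ranged in bone from -0.58 to 1.05 for Ccl2 and -0.022 to 1.42 for Ccl24, in liver from -1.50 to 0.96 for Ccl2, -0.27 to 2.10 for Ccl7 and -0.067 to 0.94 for Ccl12, and in lung from -0.43 to 0.84 for Ccl2. In the Pf4 Spp1 cluster they ranged in liver from -0.74 to 0.57 for Ccl2 and -0.20 to 0.80 for Ccl24, and in lung from -0.37 to 0.82 for Ccl7 and -0.33 to 0.56 for Ccl12. Ccl8 in bone and Ccl24 in IIA bone were under the count filter over all kept cells and were not tested there.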

Other observations

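Other cells held the members at lower levels. Conventional dendritic cells of the brain negative sort held Ccr2 at 814 ± 201 CPM and Ccl2 at 349 ± 214 CPM (SD, n = 4). Early granulocyte precursors, 8.09% of bone negative cells, supplied 26.1 ± 6.91% of the Ccl2 UMIs of that sort (SD, n = 4).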
